A study of Mus musculus with 16 samples.

Results

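The subject is the microRNA miR-126 in mouse dorsal skin, measured as its 2 mature strands, mmu-miR-126-3p and mmu-miR-126-5p, which are 2 of the 577 miRNAs on the array. They were selected by name and followed over all 16 arrays, because earlier work on these data had pointed to their pattern; their levels and their strand ratio are therefore given as a description, with no test. Skin came from female SKH-1 hairless albino mice of the mixed background SKH1-C57/Bl6-SV129, whose age the methods give as 8 to 12 weeks without saying at which point; the irradiation itself lasted 12 weeks. They were either Ppard+/+ (WT) or Ppard-/- (KO), without the receptor PPARβ/δ in the whole animal, so that no skin cell type is singled out by the deletion. Control skin of each genotype (WT no UV and KO no UV) was sham-handled, and irradiated skin (WT UV and KO UV) had received UVB at 70 mJ/cm2 per exposure, with 4 arrays to each of the 4 groups. The methods give 4 animals to a group, and name biological replicates for the mRNA arrays but not for the miRNA arrays. Ppard mRNA is not measured on a miRNA array, so the genotype could not be checked here. Each slide held 1 irradiation state, so irradiation and slide cannot be told apart; on the irradiated slide all WT arrays lay in row 1 and all KO arrays in row 2, whereas on the other slide each row held 2 arrays of each genotype.

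MiR-126 is known as the most characteristic miRNA of the endothelial cells that line blood vessels. It is made from an intron of Egfl7, a gene for a protein secreted by endothelium, and its 3p strand represses Spred1 and Pik3r2, inhibitors of signalling downstream of vascular endothelial growth factor. A miRNA precursor is a folded hairpin from which a strand of either arm can be loaded into the silencing complex, where bases 2 to 8, the seed, pair with target mRNAs. The RefSeq annotation of GRCm38.p6 placed Mir126a within Egfl7. Egfl7 and other endothelial mRNAs are not measured by these arrays, so the endothelial label could not be checked against them; in whole skin, fewer endothelial cells and less miR-126 per cell cannot be told apart.

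RefSeq (GRCm38.p6) held a mature sequence for 1 of the 2 strands, under the name miR-126a-3p, and the precursor hairpin, both on the plus strand; the sequence of the other strand, miR-126a-5p, is not printed here. The first line shows the mature strand that gives nearly all of the signal, with its seed in capitals, and the second shows where that strand lies in the hairpin, in capitals. The third is the 5p strand of Mir126b, a miRNA annotated on the minus strand of the same locus, with the stretch that is perfectly complementary to miR-126a-3p in capitals.
miR-126a-3p: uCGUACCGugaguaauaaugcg
Mir126a hairpin: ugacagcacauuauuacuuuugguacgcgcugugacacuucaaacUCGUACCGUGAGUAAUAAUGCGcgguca
miR-126b-5p: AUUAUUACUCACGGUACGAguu
The 3p strand spans bases 46 to 67 of the 73-base hairpin. None of the other entries among 1738 mature mouse sequences had its seed, CGUACCG, so no family member with the same seed was found in that list. The list is not complete, since it lacks miR-126a-5p. The complementary stretch of miR-126b-5p is 19 bases long.

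Each strand was read by 2 probes, each printed as 10 spots. On build mm9, the build of the deposited files, the probes of miR-126-3p lie at chr2:26446925-26446943 (19 bases) and chr2:26446926-26446943 (18 bases), and those of miR-126-5p at chr2:26446885-26446905 (21 bases) and chr2:26446886-26446905 (20 bases). All 320 spots of miR-126-3p over the 16 arrays were well above background and none was saturated. Of the 320 spots of miR-126-5p, 187 were well above background. Both strands were called detected by the scanner software on all 16 arrays, and both were among the 228 miRNAs tested and the 167 detected on every array.

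MiR-126-3p was the bright strand. Its total signal, the software's background-subtracted intensity on a linear scale and not normalized between arrays, ranked 25 to 35 among the 577 miRNAs of an array and made up 0.690% to 0.956% of the array's summed signal. The total signal was 1641, 1982, 1179 and 1661 units on the 4 WT no UV arrays. It was 2042, 3251, 3128 and 2381 units on the KO no UV arrays. Before normalization every KO array was thus above every WT array. On the WT UV arrays it was 2434, 2546, 1950 and 2596 units. On the KO UV arrays it was 1855, 2132, 1863 and 1823 units. The groups of irradiated skin overlapped, with 1 WT array at 1950 units below the highest KO array, and the KO UV arrays were the tightest group, with a mean of 1918 ± 143 units (SD, n = 4).

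Part of this spread was shared with the whole array. The summed signal of all miRNAs averaged 219156 ± 38792 units (SD, n = 4) for WT and 325873 ± 59499 for KO without irradiation, and 264515 ± 37294 for WT and 213597 ± 12657 for KO after it, the same order of groups as the unnormalized miR-126-3p means except that WT no UV and KO UV changed places. After each array was scaled to the 75th percentile of its signals from always-detected miRNAs, miR-126-3p stood at 1811, 2162, 1750 and 1864 units in WT no UV. It stood at 1873, 2333, 2398 and 2108 units in KO no UV. Scaled, these groups overlapped, since 2 KO arrays fell inside the WT range. The scaled signals of irradiated skin were 2348, 2202, 2025 and 2052 units in WT and 2092, 2354, 2193 and 2028 units in KO, with means of 2157 ± 150 and 2167 ± 142 (SD, n = 4). WT no UV had the lowest scaled mean, 1897 ± 183, and the other 3 groups lay between 2157 and 2178 units, closer to each other than the spread within any of them.

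**Figure D1:**
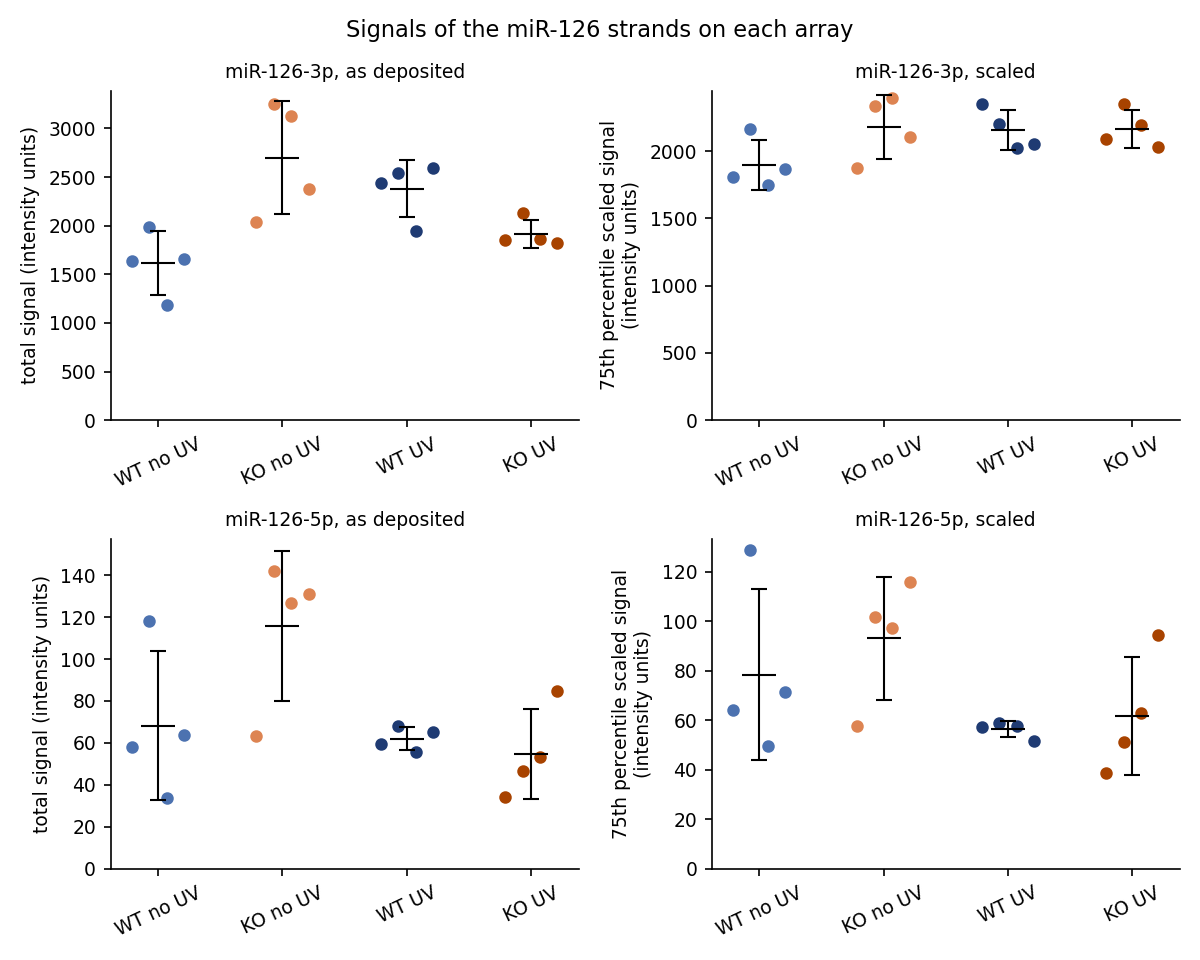
Total signal as deposited (left) and signal scaled by the 75th percentile (right), in intensity units from 0, for miR-126-3p (top) and miR-126-5p (bottom). Points are arrays in order of replicate number, dashes and bars are the mean ± SD of 4 arrays; the deposited miR-126-3p signals of KO no UV all lie above those of WT no UV, and after scaling they overlap.

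On the quantile-normalized log2 scale, which gives every array the same set of values in order of rank, miR-126-3p averaged 10.77 ± 0.12 (SD, n = 4) for WT and 11.10 ± 0.13 for KO without irradiation, and 11.23 ± 0.10 for WT and 11.10 for KO after it. The 4 KO UV arrays have no spread on this scale because miR-126-3p held rank 28 on each of them and so took the same value. Every SE of miR-126-3p on this scale pools that group with the others and is made smaller by it. KO exceeded WT by 0.33 ± 0.07 (log2 difference ± SE) without irradiation, a fold of 1.25, and the groups did not overlap. Of the 228 miRNAs tested, 1.32% were higher without overlap in that comparison. The difference came to 0.23 in row 1 and 0.42 in row 2 of that slide, each from 2 arrays per genotype. Scaled by the 75th percentile, it was 0.20 ± 0.09, with 0.08 in row 1 and 0.32 in row 2.

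With UVB, miR-126-3p was higher in WT by 0.46 ± 0.07 (log2 difference ± SE, fold 1.37), again with no overlap, as were 13.6% of the tested miRNAs in that direction. In KO the corresponding difference was 0.01 ± 0.07, with overlapping groups. The difference between the genotypes after irradiation was -0.12 ± 0.07. The UV difference in WT minus that in KO was 0.45 ± 0.10. Under the 75th percentile scaling these 4 values were 0.19 ± 0.09, -0.00 ± 0.09, 0.01 ± 0.09 and 0.19 ± 0.13, and no pair of groups was free of overlap. In size, 48 of the 228 tested miRNAs had a larger UV difference in WT than miR-126-3p on the quantile scale and 212 had a larger one in KO. The median size over the tested miRNAs was 0.20 in WT and 0.26 in KO.

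MiR-126-5p was the dim strand, ranking 122 to 170 of 577. Its total signal was 58.0, 118, 33.6 and 63.6 units on the WT no UV arrays. It was 63.1, 142, 127 and 131 units on the KO no UV arrays. These groups overlapped, because 2 WT arrays were above the lowest KO array. Irradiated skin gave 59.5, 67.9, 55.6 and 65.1 units in WT and 34.2, 46.4, 53.4 and 84.9 units in KO. The 2 irradiated groups overlapped as well, and the KO range enclosed the whole WT range. Over all 16 arrays the lowest value was on the array with the lowest summed signal, replicate 3 of WT no UV, and the highest on the array with the highest, replicate 2 of KO no UV.

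On the quantile-normalized log2 scale miR-126-5p averaged 6.11 ± 0.61 (SD, n = 4) for WT and 6.46 ± 0.31 for KO without irradiation, and 5.87 ± 0.17 for WT and 5.91 ± 0.41 for KO after it. The KO minus WT difference was 0.36 ± 0.29 (log2, SE) without irradiation and 0.05 ± 0.29 with it. Without irradiation it was -0.22 in row 1 and 0.94 in row 2 of the slide, of opposite sign, and it was 0.58 without replicate 2 of WT no UV and 0.10 without replicate 3. The UV difference was -0.24 ± 0.29 in WT and -0.55 ± 0.29 in KO, and the UV difference in WT minus that in KO was 0.31 ± 0.41. The WT difference was -0.01 without replicate 2 of WT no UV and -0.50 without replicate 3. The UV difference in WT minus that in KO was 0.05 without replicate 3 and 0.54 without replicate 2 of WT no UV, 0.16 without replicate 1 and 0.49 without replicate 4 of KO UV, and 0.20 without replicate 4 of KO no UV. All 4 pairs of groups overlapped. Both irradiated means of the 5p strand were thus the lower ones, whereas no irradiated mean of the 3p strand was below its non-irradiated counterpart by more than 0.01 under either scaling. The within-group SD of the scaled log2 signal was 0.46 for miR-126-5p and 0.13 for miR-126-3p. Among the 167 miRNAs detected on all arrays, 153 varied less than the 5p strand and 15 less than the 3p strand, and the median was 0.22.

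The probes behind the 2 strands behaved differently. For miR-126-3p the longer probe gave 1.30 to 1.42 times the signal of the shorter one on every array. For miR-126-5p that ratio ran from 2.61 to 6.74, and the longer probe carried 72.3% to 87.1% of the signal. The shorter probe of miR-126-5p, with 40 spots per group, had 8 spots well above background for WT and 26 for KO on the non-irradiated slide, and 1 for WT and 0 for KO on the irradiated one. In the same groups the longer probe had 40, 40, 39 and 33. Scaled by the 75th percentile, the longer probe of miR-126-5p differed with UVB by -0.49 ± 0.34 in WT and -0.79 ± 0.34 in KO, and the shorter by 0.11 ± 0.27 and 0.04 ± 0.27 (log2, SE). The lower miR-126-5p level after UVB was therefore seen in 1 of its 2 probes, the one that stood above background on the irradiated slide. The SD of negative control spots averaged 9.72 units on that slide and 4.04 on the other. Its part in the 5p difference was not tested.

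**Figure D2:**
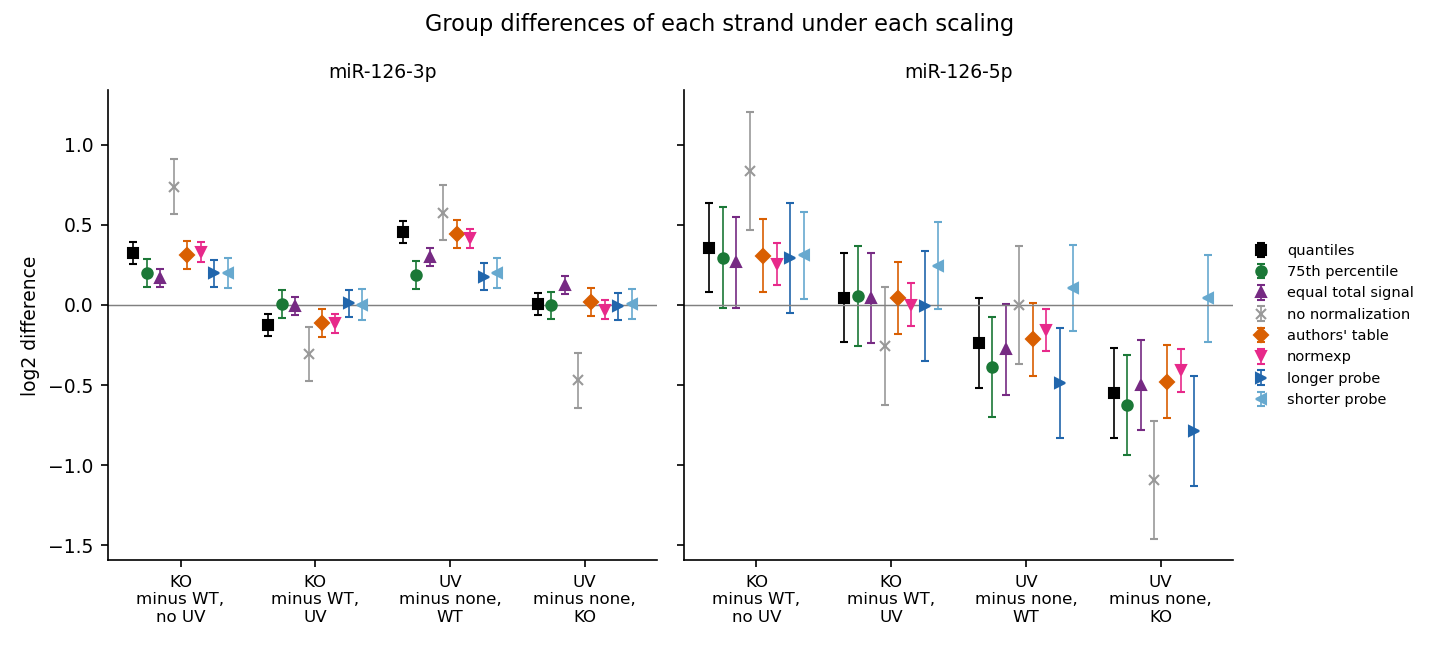
Log2 differences between groups for miR-126-3p (left) and miR-126-5p (right) under 6 ways of processing all spots and from each probe alone (scaled by the 75th percentile); bars are ± SE. The miR-126-3p difference between WT UV and WT no UV runs from 0.18 to 0.57, and the miR-126-5p difference with UVB in KO is 0.04 from the shorter probe and -1.09 without normalization.

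The strand ratio compares the signals of different probes, so its level is not a ratio of molecules, but its change from array to array is free of any scaling between arrays. The log2 ratio of miR-126-3p to miR-126-5p signal was 4.82, 4.07, 5.14 and 4.71 on the WT no UV arrays. It was 5.02, 4.52, 4.62 and 4.18 on the KO no UV arrays. The KO minus WT difference was -0.10 ± 0.29 (SE), and the ranges coincided almost entirely. With UVB the log2 ratio was 5.36, 5.23, 5.13 and 5.32 in WT and 5.76, 5.52, 5.12 and 4.42 in KO. The WT UV arrays were close together and the KO UV arrays spanned most of the range of the series. The mean ratio was higher after UVB by 0.57 ± 0.29 in WT (fold 1.49) and by 0.62 ± 0.29 in KO (fold 1.54), and the groups overlapped in both. Without replicate 2 of WT no UV the WT difference was 0.37. KO minus WT after irradiation was -0.05 ± 0.29, and the 2 UV differences differed by -0.05 ± 0.41. With each array left out in turn, the KO minus WT differences ran from -0.30 to 0.05 without irradiation and from -0.23 to 0.21 with it, and the difference of the UV differences from -0.31 to 0.14. When the background was corrected with normexp and an offset of 50 in place of the software's subtraction, the UV difference in KO was -0.08 and that in WT 0.38.

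**Figure D3:**
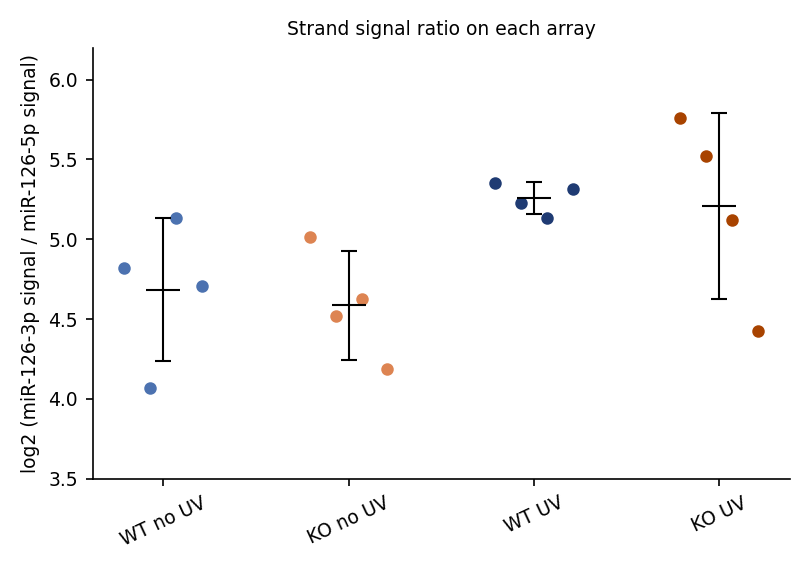
Log2 ratio of miR-126-3p to miR-126-5p total signal on each array (the axis does not start at 0). Points are arrays in order of replicate number, dashes and bars are the mean ± SD of 4 arrays; the irradiated means are 5.26 in WT and 5.21 in KO, against 4.68 and 4.59 without irradiation, and the groups overlap.

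Of 164 strand pairs on the array, 14 had both strands detected on all 16 arrays. The within-group SD of the miR-126 log2 ratio, 0.41, was exceeded by 1 of the 13 other pairs, miR-125a. The median SD was 0.17 over those 13 pairs. It was also 0.17 over the 7 of them whose dimmer strand had a mean signal within 2-fold of that of miR-126-5p. Whether low signal adds to the spread of miR-126-5p was not tested. With the brighter strand on top, the UV difference of the ratio was more positive than in miR-126 in 0 of the 13 other pairs in WT and in 2 in KO. MiR-142, a miRNA of blood cells, had UV differences of 0.53 and 0.62 in WT and KO, near those of miR-126, and a within-group SD of 0.21, so that its groups did not overlap. MiR-22 had 0.39 and 0.60, also without overlap. The muscle miRNA miR-133a went the other way, by -0.70 and -0.54.

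**Figure D4:**
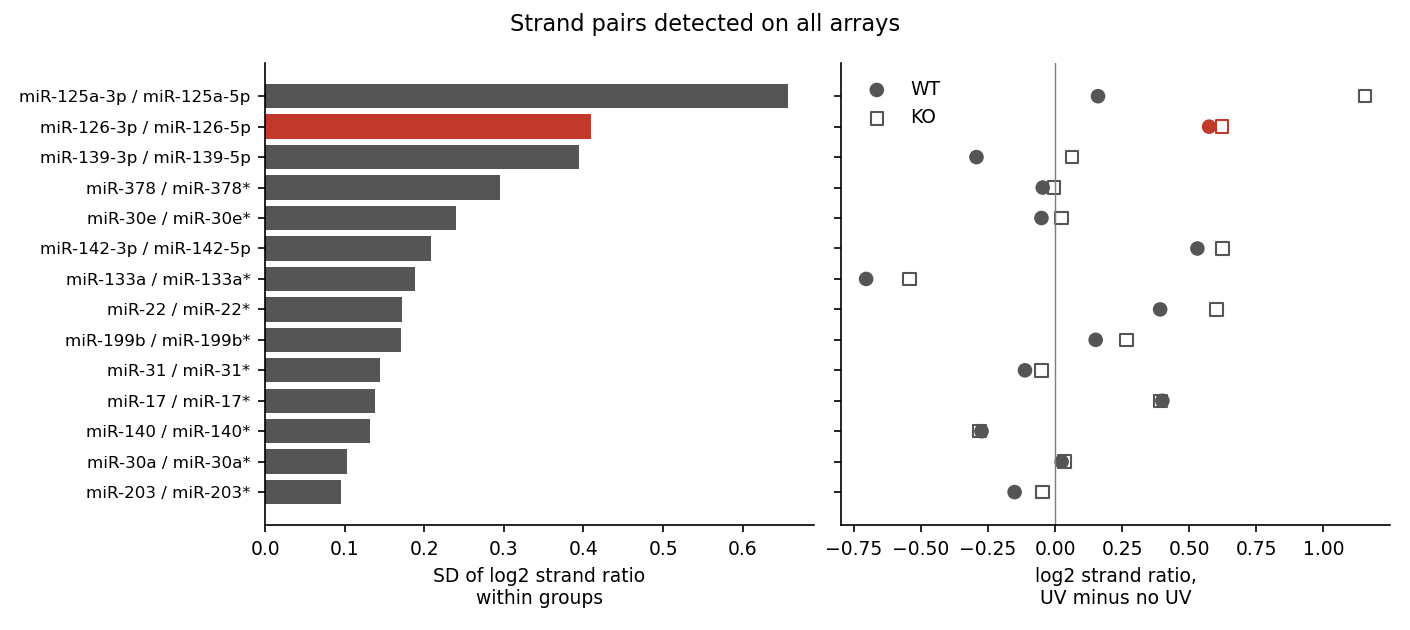
The 14 strand pairs detected on all arrays, with the within-group SD of the log2 strand signal ratio from 0 (left) and its UV minus no UV difference in WT (filled circles) and KO (open squares) on a log2 scale (right), brighter over dimmer strand. MiR-126, in red, has an SD of 0.41 and differences of 0.57 and 0.62.

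The 2 strands followed each other weakly over all arrays, and more closely among arrays of the same group. Over the 16 arrays, which share slides and brightness, their quantile-normalized log2 signals had a Pearson r of 0.07 and a Spearman rho of -0.12. Once group means were removed, r was 0.46. Under the 75th percentile scaling r was 0.26 and rho 0.18, and r was 0.50 with group means removed. The 5 miRNAs most like miR-126-3p among 166 were miR-141 (r = 0.76, rho = 0.61), miR-130a (0.75, 0.64), miR-193 (0.69, 0.41), miR-101b (0.67, 0.63) and miR-338-3p (0.66, 0.60). With group means removed their r was 0.20 to 0.60. The 5 most like miR-126-5p were miR-17 (r = 0.88, rho = 0.84), miR-30b (0.80, 0.85), miR-30e (0.78, 0.64), miR-26b (0.78, 0.80) and miR-29c (0.76, 0.77). These had r of 0.69 to 0.91 with group means removed, so the likeness to the 5p strand was also present among arrays of the same group. Under the 75th percentile scaling, 1 of the 5 miRNAs like the 3p strand and 4 of the 5 like the 5p strand were again among the first 5.

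MiR-126 was set beside 21 other miRNAs known from endothelium and angiogenesis, of which 20 were tested (limma, Benjamini-Hochberg adjusted over all 228). Without irradiation 0 of the 20 differed between KO and WT, beside 0% of all tested, and 4 had an unadjusted p under 0.05. After irradiation the count was 0, beside 2.19% of all tested, and 1 had an unadjusted p under 0.05. With UVB 4 of 20 changed in WT, 1 up and 3 down, beside 16.2% of all tested (9.21% up and 7.02% down), with a median difference of -0.00 on the list and over all tested miRNAs. In KO 5 of 20 changed, 3 up and 2 down, beside 29.8% (18.4% up and 11.4% down), with a median of 0.10 on the list and 0 over all. For the UV difference in WT minus that in KO, 0 of 20 were called, beside 2.19%, and 5 had an unadjusted p under 0.05.

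The 2 list members with the largest change in WT were miR-221 and miR-222, made from a shared cluster and known in endothelium as repressors of the stem cell factor receptor Kit. Their RefSeq sequences (GRCm38.p6, minus strand), under the present names of these strands, are shown because the pair moved together and has the same seed, in capitals.
miR-221-3p: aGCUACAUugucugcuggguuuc
miR-222-3p: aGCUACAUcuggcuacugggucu
In WT, miR-221 fell by 1.32 ± 0.18 (log2 ± SE, limma adjusted p = 0.00023) and miR-222 fell by 1.30 ± 0.20 (limma adjusted p = 0.0006) with UVB, where miR-126-3p was higher. From WT no UV to WT UV the quantile-normalized log2 level of miR-221 went from 10.11 ± 0.18 to 8.79 ± 0.16, and that of miR-222 from 8.08 ± 0.38 to 6.78 ± 0.20 (SD, n = 4). In KO the differences were -0.46 ± 0.18 (limma adjusted p = 0.064) and -0.48 ± 0.20 (limma adjusted p = 0.087), which did not pass the threshold. The test of the UV difference in WT minus that in KO did not pass either, at -0.86 ± 0.25 (limma adjusted p = 0.11) and -0.82 ± 0.29 (limma adjusted p = 0.20). Of the 166 miRNAs compared, miR-221 and miR-222 were the least like miR-126-3p over the 16 arrays, with r of -0.89 and -0.85. With group means removed r was -0.65 and -0.50. The pair was singled out after these values were seen. Under the 75th percentile scaling r was -0.53 and -0.58, and -0.19 and -0.37 with group means removed. The 19 list members compared had a median r of 0.03 with miR-126-3p on the quantile scale, as had all 166 miRNAs.

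MiR-130a, known to promote angiogenic gene programmes in endothelium, rose with UVB in WT by 0.46 ± 0.11 (log2 ± SE, limma adjusted p = 0.0096), a size close to that of miR-126-3p, and differed by 0.12 ± 0.11 in KO (limma adjusted p = 0.42). MiR-23a, of the miR-23/27/24 clusters, fell by 0.40 ± 0.11 in WT (limma adjusted p = 0.023) and by 0.37 ± 0.11 in KO (limma adjusted p = 0.026). Its call in WT was lost without replicate 1 or 3 of WT UV or of WT no UV, with an adjusted p of up to 0.074, and its call in KO without replicate 1 or 2 of KO UV or replicate 1 of KO no UV, with up to 0.076. Its KO call was also lost with no filter on detection and with slide row as a covariate, with an adjusted p of up to 0.10. Without normalization its WT difference changed sign and was not called. In KO 3 members of the miR-17-92 cluster rose, miR-18a by 1.20 ± 0.30 (limma adjusted p = 0.013), miR-20a by 0.49 ± 0.12 (limma adjusted p = 0.014) and miR-92a by 0.42 ± 0.08 (limma adjusted p = 0.005). In WT the same 3 differed by 0.81, 0.27 and 0.18 and were not called. Without normalization the KO calls of these 3 were lost too, and with normexp that of miR-18a. The other members of that cluster on the list, miR-17, miR-19a and miR-19b, were not called in KO. The mean log2 level of miR-17 was lower with UVB, at 5.70 in KO UV against 5.85 in KO no UV. MiR-10b fell by 0.30 ± 0.10 in KO (limma adjusted p = 0.04), a call kept under 2 of 9 other settings, over which the adjusted p reached 0.27, and lost without replicate 1, 2 or 3 of KO UV or replicate 2, 3 or 4 of KO no UV, with an adjusted p of up to 0.12. The calls of miR-130a, miR-221 and miR-222 in WT held under all 9 settings and without each array in turn.

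**Figure D5:**
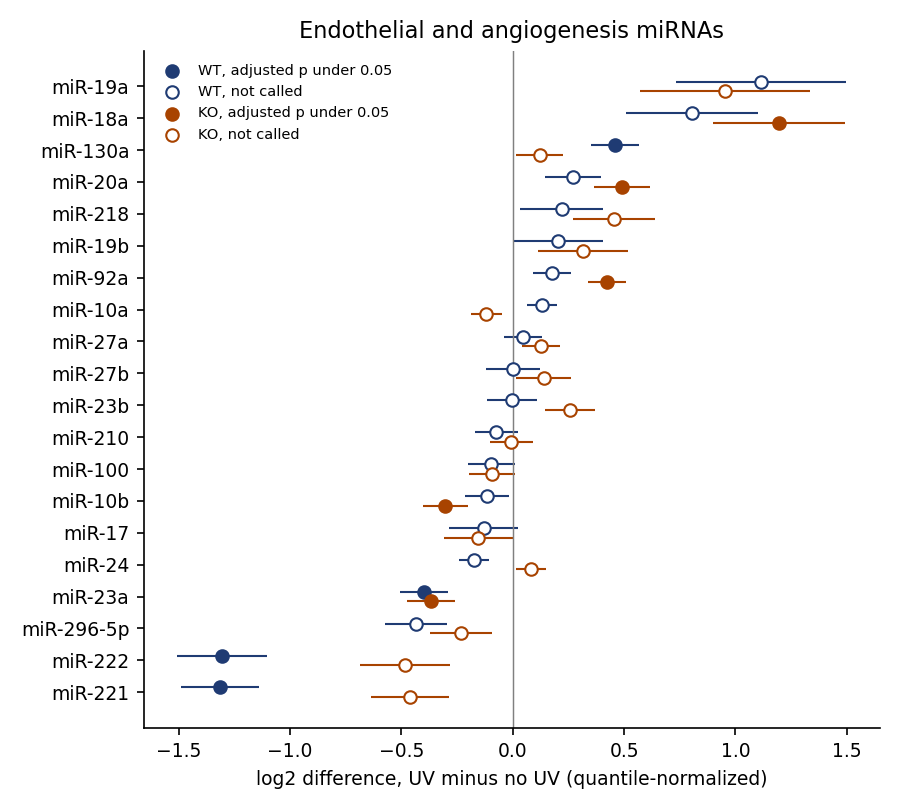
UV minus no UV log2 differences (quantile-normalized, ± SE) of the 20 tested miRNAs known from endothelium and angiogenesis, in WT (blue) and KO (orange), filled where the limma adjusted p over 228 miRNAs was under 0.05. MiR-221 and miR-222 lie at -1.32 and -1.30 in WT, and 4 miRNAs are filled in WT and 5 in KO.

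MiRNAs known from other cell types of whole skin also differed with UVB, and their part in the miR-126 values was not tested. For these miRNAs too, a change in cell content and a change per cell cannot be told apart. Over all tested miRNAs, 9.21% rose and 7.02% fell in WT with UVB, and 18.4% rose and 11.4% fell in KO. Of 7 keratinocyte miRNAs, 4 rose in WT and 6 in KO, with median log2 differences of 0.44 and 0.39; scaled by the 75th percentile 1 of 7 rose in KO, and without normalization 0 of 7, with a median of -0.09. All 4 skeletal muscle miRNAs fell in KO (median -1.04) and none passed in WT (median -0.23); their summed scaled signal ran from 37487 to 56530 units in KO no UV and from 18108 to 24209 in KO UV. Of the 2 miRNAs of smooth muscle and pericytes, the cells that wrap vessels, 1 fell in WT and 2 in KO, with medians of -0.45 and -1.23. Of 4 blood leukocyte miRNAs, 1 fell with UVB in each genotype (medians -0.38 and -0.33), and of 2 tested erythrocyte miRNAs, 1 fell in KO (median -0.45). Of 3 fibroblast miRNAs on the array, 1 rose in KO on the quantile scale and 0 under the 75th percentile scaling. On the quantile scale neither genotype comparison had a call on any of these lists. For KO minus WT without irradiation the 4 skeletal muscle miRNAs had a median of 0.73 there, with 3 of 4 higher in the authors' table, 3 of 4 with normexp and 4 of 4 without normalization. Without normalization all 7 keratinocyte miRNAs, both smooth muscle and pericyte miRNAs and 1 of 2 erythrocyte miRNAs were also higher. In that fit 46.9% of all 228 tested miRNAs were called, 106 of the 107 higher, and their median was 0.52. The authors' table had 3.95% called (5 higher and 4 lower), and normexp 6.58% (10 higher and 5 lower). For KO minus WT after irradiation, the fit with no filter on detection called 1 of 3 fibroblast miRNAs lower and 1 of 7 keratinocyte miRNAs higher. That fit called 62.2% of its 577 miRNAs, 349 higher and 10 lower.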

How the data were processed

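Cy3-labelled total RNA (100 ng) of each skin sample was read on a single array. The deposited scanner files hold, per the file headers, intensity values from Agilent Feature Extraction 9.5.3.1 on array design 19119, background-subtracted and summed per miRNA with no normalization between arrays; the methods name a later array release. Log2 values normalized by the authors, with an invariant set and quantiles, were deposited as a series table and served as an alternative.

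Total signals were quantile normalized between the 16 arrays, floored at 19.4 units and taken to log2 (limma 3.58.1, R 4.3.3; Python 3.11.15). For the floor, the 5th percentile of detected miRNAs was taken on each array, and its median used. MiRNAs that the software detected on every array of 1 group or more were tested (228), with lmFit and eBayes on group means, 12 residual and 0.802 prior degrees of freedom, and a Benjamini-Hochberg adjusted p under 0.05 as the call. The SE of the miR-126 differences and of the strand ratio came from the pooled within-group SD, with no test; those of the list came from limma. The strand ratio used unnormalized signals. The script was tested on simulated data. The members, the cell type lists and the comparisons were chosen with earlier results of these data known. Named were both strands, the called miRNAs of the endothelial list (the 3 that rose most and the 3 that fell most in each contrast, at most), and the 5 miRNAs with the highest Pearson r to each strand; other lists were given by counts and medians. Biological replicates are named in the methods for the mRNA arrays and not for the miRNA arrays, and the number of arrays limits the precision. Alternatives changed the scaling, background correction, floor, filter, replicate block, slide row and arrays left out.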

Additional observations from a re-analysis of the deposited data

Results flagged for a closer look

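The total signal of miR-126-3p on replicate 2 of KO UV was 2132 units, far from the other 3 arrays of its group (1823 to 1863 units): the gap to the nearest of them was 0.87 of the group's whole range, above Dixon's critical value for 4 samples. The array also had the highest summed signal of its group, 231139 units. This was the single such value among 27 groups of 4 values checked over both strands and their ratio, and chance gives about 1 in 20.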

How the results depend on the processing

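Scaling decided the size of the miR-126-3p differences. In the order KO minus WT without UVB, KO minus WT with UVB, UVB in WT and the UV difference in WT minus that in KO, the log2 differences were 0.20, 0.00695, 0.19 and 0.19 under the 75th percentile, 0.17, -0.00609, 0.30 and 0.17 with equal total signal, and 0.74, -0.31, 0.57 and 1.04 without normalization, where the median of all tested miRNAs moved by 0.52, -0.23, 0.20 and 0.74. For UVB in KO, equal total signal gave 0.12 and no normalization -0.47, with a median over all tested of -0.47. Probes taken alone, an alternative chosen after seeing the data, gave 0.20, 0.0108, 0.18 and 0.19 from the longer miR-126-3p probe and 0.20, 0.00187, 0.20 and 0.20 from the shorter. For miR-126-5p, no normalization gave 0.84 for KO minus WT without UVB, -1.09 for UVB in KO and 1.09 for the UV difference in WT minus that in KO, and the shorter probe gave 0.0422 for UVB in KO. The log2 strand ratio with normexp was -0.0816 for UVB in KO and 0.46 for the UV difference in WT minus that in KO. This normexp fit left out spots whose local background lay above their own signal, a choice made after seeing the data, since the fit to every spot gave a negative background on some arrays and was not used. The remaining alternatives, 107 of 135 values for the strands and their ratio, moved by less than the within-group SD. Leaving out each array moved no miR-126 value by that much, but moved some by over 1.5 times. With single arrays left out, miR-126-3p with UVB in KO ran from -0.03 to 0.07, miR-126-5p for KO minus WT with UVB from -0.13 to 0.20.

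Endothelial list calls for KO minus WT without UVB were 8 with no normalization, 1 with the authors' table and 1 with normexp, against 0; for KO minus WT with UVB, 2 with no filter, against 0; for UVB in WT, 7 with equal total signal, 7 with the authors' table and 9 with no filter, against 4; for UVB in KO, 12 (all lower) with no normalization, 3 with no filter and 3 with slide row as a covariate, against 5; and for the UV difference in WT minus that in KO, 11 with no normalization and 5 with no filter, against 0. Without each array in turn these counts ran from 0 to 1, 0 to 0, 3 to 6, 3 to 6 and 0 to 1; the count was 1 without replicate 2 of WT no UV or replicate 4 of KO no UV in the first comparison, 3 without replicate 1 or 2 of KO UV in the fourth, and 1 without replicate 4 of KO no UV in the last. Main calls over all tested miRNAs were 0, 5, 37, 68 and 5. The alternatives gave 0 to 107, 1 to 359, 27 to 410, 29 to 128 and 0 to 366. No filter (577 tested, 21 on the list) gave 0, 359, 410, 29 and 366. Of main UVB calls, 21 of 37 in WT and 42 of 68 in KO were higher. The 75th percentile gave 14 of 42 and 22 of 55, and no normalization 29 of 35 and 6 of 128. In KO the authors' table gave 38 of 79 and normexp 31 of 86. Without each array in turn main calls ran from 0 to 16, 5 to 7, 30 to 43, 35 to 70 and 1 to 12. The causes were not tested.

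Deviations of same-numbered arrays correlated at 0.13 to 0.32 for UVB in WT and 0.01 to 0.32 for KO minus WT with UVB. Elsewhere r was -0.35 to 0.22, and the methods do not pair arrays by number. With the replicate number as a replicate block, calls were 0, 4, 40, 61 and 1 over all tested and 0, 0, 4, 4 and 0 on the list. The block changed no list call for UVB in WT. Likeness to miR-126-3p depended on the scaling more than likeness to miR-126-5p. Signal was low for miR-126-5p, at 4.67 to 10.8 times the software's error, against 13.9 to 14.0 for miR-126-3p.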
